A study of Mus musculus with 12 samples.

Results

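The comparison asks which accessible regions of PFF-treated neurons changed in common when LRRK2 was inhibited or Rab5 was lowered. It takes 6 ATAC-seq libraries together, 3 of neurons given pre-formed α-synuclein fibrils (PFF) with MLi-2 and 3 given PFF with antisense oligonucleotides (ASO) against Rab5, and sets them against the 3 libraries of neurons given PFF alone. These are 9 of the 12 libraries of the series. The other 3 are from neurons given PBS, and they entered no call below. All neurons were primary cortical cultures from C57BL/6 wild-type mouse embryos of day 18, and all libraries were labelled batch 1. PFF was present for 7 days in all 9 libraries. The labels give the same 7 days for every treatment, whereas the methods describe MLi-2 for the final 5 days and the ASOs against Rab5a and Rab5b for the final 3 days. Control cultures for MLi-2 received its solvent, DMSO, per the methods, which are not specific to these libraries, and no library of PFF with a control oligonucleotide was analysed here. The free text of the treated samples mentions PBS where their titles and treatment labels say PFF, and the titles were followed. The study's methods describe its replicates as independent experiments and count each pregnancy as a biological replicate, while the labels only number the libraries, and which pregnancy a library came from is not given.

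The members of the comparison are genomic regions. Peaks of the 9 lists that shared at least 1 bp were joined into 250405 regions, and 76004 of these were present in every library. A region counted as gained in both treatments with peaks in all 6 treated and 0 of the 3 PFF libraries, and as lost in both with peaks in 0 of 6 and 3 of 3. By this rule 119 regions were gained, 0.0475% of all regions, and 1167 were lost, 0.466%. Among the regions shared by all 9 libraries, the rank of peak height was compared. In the mean of both treatments against PFF, 29 regions were called, 0.0382% of those tested. The test of a change in each treatment called 0, and so did fits with a replicate block or with the treated libraries as 1 group.

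In ATAC-seq the transposase Tn5 cuts and tags DNA where it is not wrapped in nucleosomes, so a peak marks an accessible stretch such as a promoter or an enhancer. LRRK2 is a kinase that phosphorylates small Rab GTPases on endosomes and lysosomes, and MLi-2 is a selective inhibitor of it. Rab5 directs fusion and signalling at the early endosome. Fibrils of α-synuclein are taken up by endocytosis and seed the aggregation of the neuron's own α-synuclein, and transcription factors such as TFEB and TFE3, which bind CACGTG, link lysosomal state to gene expression. AP-1 factors of the FOS and JUN families bind TGACTCA and are induced by activity and stress, and basic helix-loop-helix factors of neurons bind CAGCTG or CAGATG. Accessible chromatin is made by factors of all these kinds, and a match to their letters is a description of the sequence and not evidence of binding.

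Sequences of 3 lost regions are shown because the letters described below lie in them. Each runs 100 bp to either side of the summit in GRCm38, plus strand, with matches in capitals. The first is an intron of Rufy3, an adaptor protein of neurons (chr5:88630985-88631185), with an AP-1 match. The second is intergenic near Pag1, a membrane adaptor that recruits the kinase Csk (chr3:9853867-9854067), with CAGCTG and with CAGATG on the minus strand. The third is intergenic near Bcl11b, a transcription factor of deep-layer cortical neurons (chr12:108078872-108079072), with CAGATG.
Rufy3: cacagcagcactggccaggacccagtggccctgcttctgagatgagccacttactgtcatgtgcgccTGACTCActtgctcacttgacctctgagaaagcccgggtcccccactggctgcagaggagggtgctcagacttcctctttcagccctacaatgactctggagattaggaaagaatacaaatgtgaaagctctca
Pag1: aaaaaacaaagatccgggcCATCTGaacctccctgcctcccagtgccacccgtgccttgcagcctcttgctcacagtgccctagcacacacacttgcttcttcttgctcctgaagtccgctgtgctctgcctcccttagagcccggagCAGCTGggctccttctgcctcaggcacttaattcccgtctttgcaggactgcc
Bcl11b: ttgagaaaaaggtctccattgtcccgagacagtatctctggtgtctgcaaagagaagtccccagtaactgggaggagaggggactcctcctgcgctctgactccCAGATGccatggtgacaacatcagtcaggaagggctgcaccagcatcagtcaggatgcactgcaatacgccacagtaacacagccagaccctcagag

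A pair of gained regions is shown for contrast. One lies in an intron of Prkg1, which encodes a cGMP-dependent protein kinase (chr19:31317538-31317738), and its capitals mark CTAAAAATA, a sequence bound by MEF2 factors. The other lies in an intron of Gabrg3, a subunit of the GABA-A receptor (chr7:57214201-57214401), and held none of the 16 letter strings searched. Their GC content was 32.8% and 42.8%.
Prkg1: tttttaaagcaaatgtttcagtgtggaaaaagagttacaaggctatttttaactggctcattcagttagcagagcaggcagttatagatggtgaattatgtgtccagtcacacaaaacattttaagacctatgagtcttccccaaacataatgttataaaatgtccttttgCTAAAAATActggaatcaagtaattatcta
Gabrg3: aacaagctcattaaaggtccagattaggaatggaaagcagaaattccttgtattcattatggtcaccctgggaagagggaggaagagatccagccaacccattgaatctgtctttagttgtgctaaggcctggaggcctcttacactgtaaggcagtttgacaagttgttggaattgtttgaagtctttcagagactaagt

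From regions present in all 9 libraries, 3 whose height rank differed are shown. Snx33, a sorting nexin of the endosomal system (chr9:56924627-56924827, intron), ranked lower in treated libraries and held CAGCTG and an AP-1 match on the minus strand. The intergenic region named for Fam240a (chr9:110909642-110909842) had the largest lower effect and held CACGTG. The intergenic region named for Gm33912 (chr16:63179299-63179499) ranked higher and held CAGCTG and a pair of matches to TTCNNNGAA, the letters of STAT factors.
Snx33: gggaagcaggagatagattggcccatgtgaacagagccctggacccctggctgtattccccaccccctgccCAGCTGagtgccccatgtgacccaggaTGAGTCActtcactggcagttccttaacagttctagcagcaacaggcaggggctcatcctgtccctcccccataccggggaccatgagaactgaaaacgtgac
Fam240a: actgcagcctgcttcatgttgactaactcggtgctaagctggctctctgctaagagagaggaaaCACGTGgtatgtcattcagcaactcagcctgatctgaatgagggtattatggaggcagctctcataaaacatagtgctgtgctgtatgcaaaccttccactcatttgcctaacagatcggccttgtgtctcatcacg
Gm33912: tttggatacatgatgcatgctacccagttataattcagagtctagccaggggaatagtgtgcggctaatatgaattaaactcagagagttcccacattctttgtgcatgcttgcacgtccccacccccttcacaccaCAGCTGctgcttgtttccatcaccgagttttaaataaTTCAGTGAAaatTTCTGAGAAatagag

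The lists were first compared in number of peaks, covered length, width and depth. The PFF libraries held 172377, 166426 and 151900 peaks, the PFF+MLi-2 libraries 146019, 147991 and 145497, and the PFF+Rab5 ASO libraries 184717, 167882 and 162763. The PFF+MLi-2 libraries all lay below the PFF range, and 2 of the 3 PFF+Rab5 ASO libraries lay within it. The 6 treated libraries together (159145 ± 15661, SD) did not differ from the 3 PFF libraries (163568 ± 10533) in an exact permutation test over 84 assignments (two-sided, p = 0.667). The covered length was 27.7 ± 2.08 Mb in treated and 30.7 ± 1.87 Mb in PFF libraries (exact permutation test, two-sided, p = 0.107).

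Median peak width was 135, 139 and 139 bp in PFF, 135, 130 and 132 bp in PFF+MLi-2, and 118, 124 and 112 bp in PFF+Rab5 ASO. No treated list was wider than the narrowest PFF list, and the difference of -12.5 bp missed the threshold (exact permutation test, two-sided, p = 0.0595). Relative depth, an estimate from the background value of each list with the mean of the 12 libraries set to 1, was 0.919, 0.835 and 0.775 in PFF, 1.02, 0.957 and 1.03 in PFF+MLi-2, and 1.31, 1.05 and 1.30 in PFF+Rab5 ASO. Every treated library was therefore deeper than every PFF library by this estimate. The difference was 0.266 (exact permutation test, two-sided, p = 0.0476), and it missed the threshold in an exact test that permuted labels only inside a replicate number (p = 0.0741). With 3 libraries against 3, an exact p cannot go below 0.1, and that value was reached for depth by MLi-2 alone (0.157) and by the ASO alone (0.376). The median summit pileup was 16 to 18 fragments in all 9 libraries. Depth and treatment move together here, and the part of depth in the results below was not tested beyond the equal-sized lists described there.

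**Figure D1:**
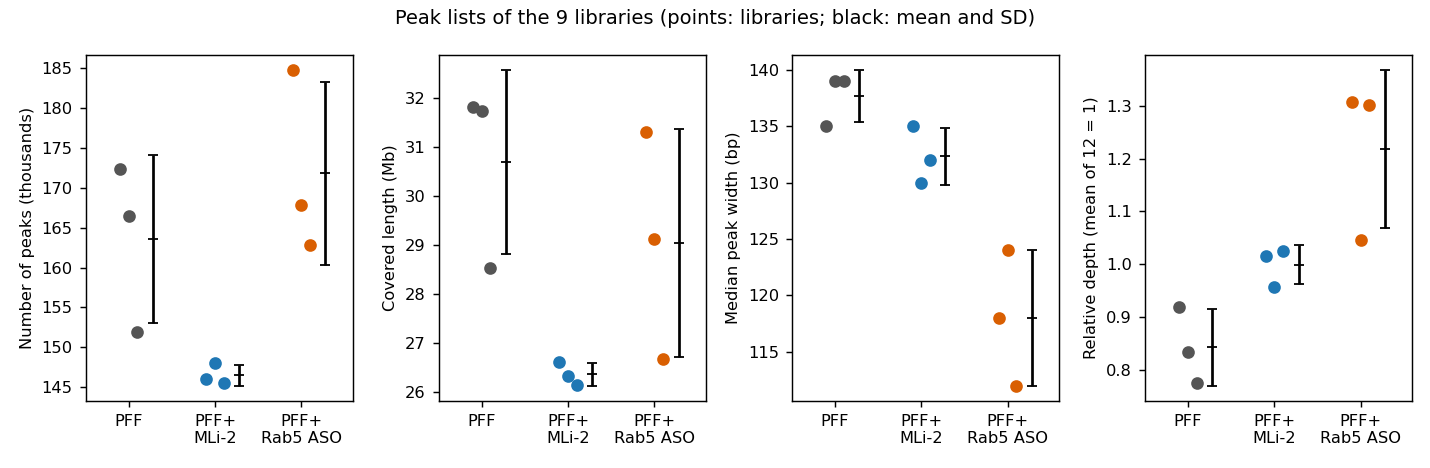
Number of peaks, covered length (Mb), median peak width (bp) and relative depth (mean of the 12 libraries = 1) of the 9 libraries by group; coloured points are libraries and black bars the group mean and SD. The axes do not start at 0. The PFF libraries sit lowest in relative depth (0.775 to 0.919) and at 135 bp or more in width, whereas in peak number the PFF+MLi-2 libraries lie below PFF and the PFF+Rab5 ASO libraries overlap it.

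The peak sets of treated and PFF libraries differed in an exact permutation test, but missed the threshold with labels permuted inside a replicate number. Similarity was measured as the Jaccard index, the length in base pairs shared by a pair of lists over the length covered by either. The mean index was 0.659 between PFF libraries, 0.655 between PFF+MLi-2 libraries and 0.654 between PFF+Rab5 ASO libraries. It was 0.628 between PFF and PFF+MLi-2, 0.595 between PFF and PFF+Rab5 ASO and 0.592 between the treatments. The treated libraries were thus no more like each other across treatments than like PFF. The test of the 6 treated against the 3 PFF libraries gave a pseudo-F of 1.46 (exact permutation test, one-sided, p = 0.0357), and the exact p was 0.111 with labels permuted inside a replicate number.

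Regions lost in both treatments outnumbered regions gained in both by 9.81 to 1. The counts in the grid of calls show how close other regions came. A further 550 regions had 5 of 6 treated and 0 of 3 PFF peaks, and 634 had 6 of 6 and 1 of 3. On the other side, 2028 regions had 1 of 6 and 3 of 3, and 4389 had 0 of 6 and 2 of 3. Fewer libraries have to share a peak for a loss than for a gain, so the counts were also read against regions with the same number of peaks. The 119 gained regions were 1.08% of the 10991 regions with a peak in exactly 6 of the 9 libraries, and the 1167 lost regions were 6.02% of the 19387 regions with a peak in exactly 3. Spread evenly over the 84 ways to choose those libraries, either share would be 0.0119, or 1 in 84. The gained share was slightly below this, so the gained regions are described only and not taken as a common change. The lost share was above it. No region was tested on presence or absence alone.

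With the same number of top peaks taken from every list, 145384, the counts were 185 gained and 882 lost. Of the 119 gained regions, 95 were gained there too (79.8% of the 119 and 51.4% of the 185). Of the 1167 lost regions, 640 were lost there too (54.8% of the 1167 and 72.6% of the 882). When a library was counted only where its peaks covered at least 50% of a region, 19 gained and 674 lost regions were left. Without PFF replicate 3 the lost regions numbered 3083, and without PFF replicate 1 the gained regions numbered 447.

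**Figure D2:**
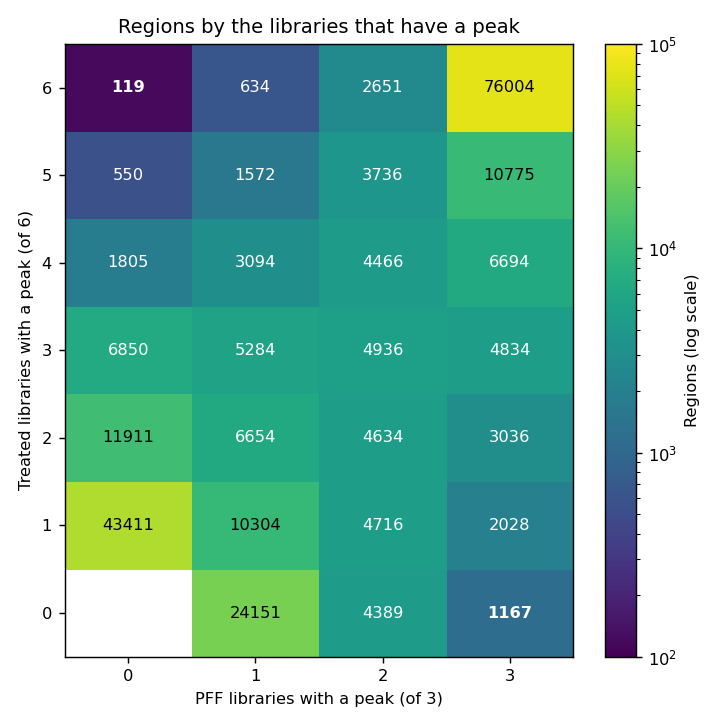
Number of regions (colour, log scale, and digits) by how many of the 6 treated libraries (vertical axis) and how many of the 3 PFF libraries (horizontal axis) had a peak in them. The 119 regions gained in both treatments are at the upper left and the 1167 lost in both at the lower right, beside 76004 regions that every library shared.

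Each treatment alone, 3 libraries against the same 3 PFF libraries, gave larger sets. PFF+MLi-2 had 786 gained and 3400 lost regions, and PFF+Rab5 ASO had 6127 gained and 4490 lost. The 119 regions gained in both were 15.1% of the MLi-2 gains and 1.94% of the ASO gains. The 1167 regions lost in both were 34.3% of the MLi-2 losses and 26.0% of the ASO losses. The comparisons share the PFF libraries, so a peak missed in those libraries counts towards both, and the overlap is given as a count and not as evidence of a shared response.

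Lost regions lay mostly in introns. Of the 1167, 662 were intronic (56.7%, Wilson 95% interval 53.9 to 59.5%), 358 intergenic (30.7%, 28.1 to 33.4%), 92 within 1 kb of a transcription start site (7.88%, 6.47 to 9.57%) and 55 in other exons (4.71%, 3.64 to 6.08%). Among all regions with a peak in exactly 3 libraries, 49.1% were intronic and 38.3% intergenic. Gained regions were 47.9% intronic and 44.5% intergenic (35.9 to 53.5%), beside 48.5% and 37.2% of all regions with a peak in exactly 6 libraries. Promoters were 6.72% of gained regions (3.45 to 12.7%) against 10.6% of regions with 6 peaks, and the 7.88% of lost regions stood against 9.48% of regions with 3 peaks. Both comparison shares lie inside the intervals. Of the regions shared by all 9 libraries, 24.6% were promoters. The intervals reflect counting error alone, and neighbouring regions may vary together.

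Both kinds of region were weak peaks. The median of the mean percentile of fold enrichment within their own lists was 31.5 for lost and 44.5 for gained regions, against 72.6 for the regions shared by all 9 libraries. The median summit pileup was 12.7 fragments at lost and 14.8 at gained regions, against 24.2 at shared ones. Regions of the same number of libraries were alike in this, with 12.7 fragments over those with 3 peaks and 13.8 over those with 6. The median GC content within 100 bp of the summit was 50.2% in lost and 42.8% in gained regions, and 46.8% and 48.3% in the regions with 3 and with 6 peaks. Gained regions were thus the more AT-rich and lost regions the more GC-rich of their kind. Among shared regions the height effects also varied with GC content. In the 16057 shared regions with the lowest GC content, the median height effect of the ASO was 0.15 and that of MLi-2 0.0044 on the scale of normal scores, and in the 15135 regions of the middle class the medians were -0.077 and -0.036. In the 14679 regions with the highest GC content they were 0.054 and 0.091, so the medians were not ordered by GC content. The part of base composition in the gained and lost sets was not tested.

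The PBS libraries had no part in the calls. Of the 119 gained regions, 40 had a peak in all 3 PBS libraries (33.6%, 25.8 to 42.5%) and 8 in none of them (6.72%). For all regions with 6 peaks these shares were 30.4% and 8.53%. Of the 1167 lost regions, 42 had a peak in all 3 PBS libraries (3.6%, 2.67 to 4.83%) and 533 in none (45.7%, 42.8 to 48.5%), against 4.19% and 45.1% of all regions with 3 peaks. At both sets the PBS libraries therefore had peaks about as often as at other regions called in as many of the 9 libraries.

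**Figure D3:**
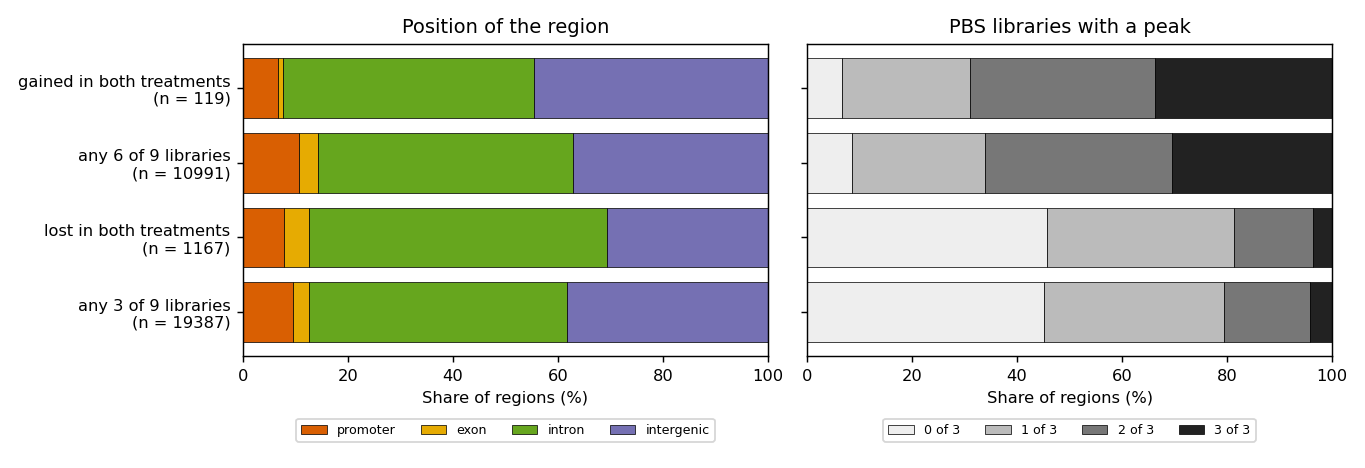
Share of regions (%) by annotated position, left, and by the number of PBS libraries with a peak, right, for regions gained or lost in both treatments and for all regions with a peak in exactly 6 or exactly 3 of the 9 libraries. Lost regions are 56.7% intronic against 49.1%, and the PBS shares of the comparison rows lie within the intervals of the gained and lost sets.

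Lost regions held the letters of AP-1 and of neuronal helix-loop-helix factors more often than other weak regions. TGACTCA, read on both strands within 100 bp of the summit, was in 162 of the 1167 lost regions (13.9%, 12 to 16.0%), in 7.86% of regions with 3 peaks and in 7.39% of all 250405. CAGCTG was in 26.0% of lost regions (23.6 to 28.6%), 16.1% of regions with 3 peaks and 17.0% of all. CAGATG was in 30.9% (28.3 to 33.6%), 22.8% and 22.1%. CACGTG, the letters that TFEB and TFE3 bind, was in 58 lost regions (4.97%, 3.86 to 6.37%), 3.27% of regions with 3 peaks and 3.54% of all. It was in 4.40% of regions shared by all 9 libraries, a share inside that interval. Unlike the other strings of this paragraph, CACGTG was not read within the classes of GC content below. The 4 strings do not contain one another, and no test was run on the shares.

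Base composition differed between these sets, so the shares were read within classes of GC content. In the 702 lost regions of over 45 to 55% GC, TGACTCA was in 16.0% (13.4 to 18.8%), against 9.41% of the regions with 3 peaks in that class. In that class CAGCTG was in 26.2% (23.1 to 29.6%) against 18.8%, and CAGATG in 32.1% (28.7 to 35.6%) against 23.8%. Above 55% they were in 35.6% (29.9 to 41.8%) against 24.1% and in 30.0% (24.6 to 35.9%) against 19.8%. At 45% GC or less CAGCTG was in 14.7% (10.59 to 19.99%) against 10.6%, a share just inside the interval, and CAGATG in 28.4% (22.9 to 34.8%) against 22.7%. At 45% GC or less, TGACTCA was in 9.17% of 218 lost regions (6.02 to 13.7%) against 6.91%, and above 55% in 12.1% of 247 (8.64 to 16.8%) against 6.06%. In the lowest class the intervals of TGACTCA and CAGCTG thus include the share of the comparison regions. In the 640 lost regions that were lost also with lists of equal size, TGACTCA was in 15.2%, CAGCTG in 25.2% and CAGATG in 30.3%. For the other strings the interval included the share of regions with 3 peaks or lay below it. TTGGCA, bound by nuclear factor I, was in 19.3% of lost regions (17.1 to 21.6%) against 21.1%, and GGGCGG, bound by SP and KLF factors, in 5.14% (4.02 to 6.56%) against 5.34%. GTTNCCATG, a looser form of an RFX sequence that was added after the sequences had been seen, was in 1.46% (0.911 to 2.32%) against 4.24%, and at over 45 to 55% GC in 1.57% (0.877 to 2.78%) against 3.91%. Above 55% GC its share of 0.810% (0.222 to 2.90%) had an interval that includes the comparison share of 1.47%.

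The same letters were searched in gained regions. TGACTCA was in 3 of 119 (2.52%, 0.861 to 7.15%), against 9.23% of regions with 6 peaks. In the 69 gained regions of 45% GC or less it was in 4.35% (1.49 to 12.02%) against 8.74% in that class, a share inside the interval. In the 43 of over 45 to 55% GC it was in 0 (0 to 8.20%) against 10.6%, a share outside the interval, and in the 7 above 55% in 0 (0 to 35.4%) against 6.32%. CAGCTG was in 14 (11.8%, 7.14 to 18.8%) against 17.9%, and CAGATG in 21 (17.6%, 11.8 to 25.5%) against 25.3%, and for both the interval includes the comparison share. GTTNCCATG was in 8 (6.72%, 3.45 to 12.7%) against 3.74%, a share inside the interval, in 4.35% (1.49 to 12.02%) against 4.16% at 45% GC or less, and in 5 of 43 at over 45 to 55% GC (11.6%, 5.07 to 24.5%) against 4.21%, a share below the interval. GGGCGG was in 2 (1.68%, 0.462 to 5.92%) against 6.82%. CTAAAAATA was in 4 (3.36%, 1.31 to 8.32%), against 1.23% of regions with 6 peaks and 1.09% of all. In the Prkg1 region printed above these are the letters in capitals. With counts this low the shares of gained regions are loosely set.

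The strongest lost regions by percentile in their own lists were 10 regions with list percentiles averaging 63.8 to 74.3 and summit pileups of 13 to 22 fragments. Dusp9, a phosphatase of MAP kinases, led with an exonic region (chrX:73642976-73643371) at pileups of 16, 19 and 20 in the PFF libraries. Acap2, a GTPase-activating protein for Arf6, followed (chr16:31094151-31094401, exonic) at 16, 15 and 22, and Rbm14, an RNA-binding coactivator (chr19:4802941-4803244, exonic), at 17, 19 and 18. The 6 treated libraries had no peak at any of them.

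The region near Bcl11b lay 75.3 kb from its start site (chr12:108078846-108079051), with pileups of 15, 19 and 16. That near Pag1 lay 20.3 kb away (chr3:9853833-9854096), with 13, 20 and 18, and 0 of 3 PBS libraries had a peak there. The Rufy3 intron (chr5:88630936-88631149) had 14, 18 and 17. These 3 are the regions whose sequences are printed above, and their heights were of the same order in the 3 PFF libraries. The other 4 were introns or exons of Neu2, a cytosolic sialidase, and of Cd200r4, a receptor of the CD200 receptor family, and intergenic regions near Gm29676 and Gm29234. Of all 10, only Acap2 had a peak in all 3 PBS libraries.

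A set of 63 genes held more than 1 lost region. Gm20388 held 6, but its annotated span is 4435 kb and overlaps other genes. Rora, a nuclear receptor, held 4 over 734 kb. Dclk1, a microtubule-associated kinase, Kirrel3, a synaptic adhesion protein, Prdm16, a zinc-finger transcription factor, Ptprt, a receptor phosphatase, and Srpk2, a kinase of splicing factors, held 3 each, all intronic. These are long genes, and no correction for length was made. No gene held more than 1 gained region. Over 21938 protein-coding genes, 642 (2.93%) held a lost and 57 (0.26%) a gained region.

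Of the 10 strongest gained regions, 4 lay inside genes and 5 between them. These 10, chosen for the highest percentiles, averaged 59.0 to 71.7 in their lists, with pileups of 9 to 31 fragments. The first lay 139 kb from the start of Gm49243 (chr15:65549186-65549358) at pileups of 21, 14 and 19 with MLi-2 and 23, 15 and 19 with the ASO. The Gabrg3 intron (chr7:57214156-57214379) had 19, 15 and 19 with MLi-2 and 20, 15 and 12 with the ASO. The Prkg1 intron (chr19:31317557-31317741) had 16, 10 and 15, and 19, 18 and 22. Treatments overlapped in these values at Gm49243 and Gabrg3, and at Prkg1 each ASO library was above each MLi-2 library. PBS libraries had peaks at 3 of 3 in all 3 of these regions. The other 7 were near or in Gm18584, Gm11376, Gm26146, Gm14998, Nwd2, Ccser1 and Gm44845, and only the region at Gm14998, a promoter, was within 1 kb of a start site.

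Peak height changed at few shared regions. Over the 76004 regions, limma with Benjamini-Hochberg adjustment called 15 higher and 14 lower in the mean of both treatments against PFF, 0.0382% of the regions tested. At an unadjusted p under 0.05 there were 5489 higher and 5907 lower. The test that asked for a change in each treatment in the same direction called 0 higher and 0 lower (1331 and 1561 unadjusted, smallest adjusted p = 0.806). By limma on the same fit, MLi-2 alone gave 0 and 0 (4408 and 4564 unadjusted, smallest adjusted p = 0.0692), and the ASO alone gave 1409 and 1480 (3.8% of the regions tested). The difference between the ASO and MLi-2 was itself past the threshold at 1550 regions higher and 1559 lower with the ASO (4.09%). On simulated data the test of the mean recovered 0% of regions shifted by 1 SD of the normal score and 87% of those shifted by 2 SD. The test of each treatment recovered 0% and 74.5%. The simulated noise was independent between libraries, the treatments did not differ in it, and shifts between 1 and 2 SD were not simulated.

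Without a model, the 6 treated ranks all lay above the 3 PFF ranks at 2309 regions (3.04%) and all below at 2109 (2.77%). Of the 29 called regions, 28 were of this kind. The exception, in an intron of Hs3st4, a heparan sulfate sulfotransferase, had an effect of 0.37 with MLi-2 and 2.40 with the ASO. The regions were called on the mean of both effects against the same 3 PFF libraries, so the following values describe the calls and support nothing. In all 29 the effects of the treatments had the same sign. By limma, MLi-2 against PFF passed an unadjusted p under 0.05 in 28 of them and the adjusted threshold in 0, whereas the ASO passed the adjusted threshold in 29. The ASO effect was the larger in 21, and in 7 the difference between treatments passed the adjusted threshold, which 4.09% of all regions did. The size of the mean effect ran from 1.09 to 1.86 SD of the normal score. These calls are close to the threshold. With a block for the replicate number, limma called 0 and 0 (smallest adjusted p = 0.0842), and with the treated libraries as 1 group of 6 also 0 and 0 (smallest adjusted p = 0.0868). Leaving out any of the 3 PFF or 3 PFF+Rab5 ASO libraries, or MLi-2 replicate 1 or 3, gave 0 and 0, and leaving out MLi-2 replicate 2 gave 10 and 9.

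Of the 15 regions ranked higher, 8 were intergenic and 6 intronic. Values are percentiles of fold enrichment among the 76004 shared regions of a library, where 0 is lowest. The region in an intron of Ovol2, a zinc-finger transcription factor of epithelia (chr2:144324425-144324648), was at 14.0, 7.03 and 2.5 in PFF, 56.0, 56.9 and 47.2 in PFF+MLi-2 and 47.4, 52.1 and 46.5 in PFF+Rab5 ASO. The treatments were alike there and all 6 treated libraries lay far above PFF. The mean effect was 1.53 ± 0.198 (SE, adjusted p = 0.0404). The Corin intron (chr5:72425482-72425949), in the gene of a serine protease that activates atrial natriuretic peptide, rose from 14.0, 11.1 and 14.9 to 61, 80.1 and 48.4 with MLi-2 and 57.9, 70.7 and 67.1 with the ASO (1.49 ± 0.203, adjusted p = 0.0466).

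Gpr85, an orphan G protein-coupled receptor of brain, was the one promoter among the higher regions (chr6:13838015-13838362, 0.265 kb from the start site). It was at 0.702, 0.696 and 0.268 in PFF, at 3.19, 9.05 and 4.18 in PFF+MLi-2 and at 25.2, 37.5 and 36.2 in PFF+Rab5 ASO. Groups did not overlap here and at the other named height regions because they were chosen so. The Gpr85 region was within the lowest 1% of shared regions in each PFF library. The ASO effect of 2.12 exceeded the MLi-2 effect of 0.93 (difference 1.19, adjusted p = 0.0185). The mean effect was 1.52, but with regions made from merged windows of 100 bp to each side of the summits it was 0.23 and lost the call in limma (adjusted p = 0.550). Repeats masked 55.7% of the window around this summit.

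The intergenic region near Sohlh1, a helix-loop-helix factor of germ cells (chr2:25852715-25853087), went the other way, with 70.6, 69.5 and 69.9 in PFF+MLi-2 and 50.6, 47.7 and 51.1 in PFF+Rab5 ASO, against 13.2, 20.4 and 11.1 in PFF. Its MLi-2 effect was 1.58 and its ASO effect 1.05, and the difference missed the threshold (adjusted p = 0.116). The Gm33912 region printed above (chr16:63179329-63179578) was at 5.61, 7.03 and 9.59 in PFF, 50.6, 32.7 and 35.5 in PFF+MLi-2 and 52.9, 52.1 and 46.5 in PFF+Rab5 ASO. It is one of the regions where every treated library was above 30 and every PFF library under 10. The remaining named regions, at Gm25959, Gm5191, Gm48697, 4930542D17Rik and Gm34785, had effects of 1.63, 1.59, 1.54, 1.45 and 1.40. The Gm48697 effect was 0.22 with those windows around summits (limma, adjusted p = 0.589).

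Of the 14 regions ranked lower, 8 lay in introns and 5 between genes. Kalrn, a guanine nucleotide exchange factor of dendritic spines (chr16:34157795-34157963), was at 61.3, 43.7 and 56.3 in PFF, 20.02, 28.7 and 13.9 in PFF+MLi-2 and 1.65, 3.32 and 4.28 in PFF+Rab5 ASO. Its mean effect was -1.46 ± 0.186 (adjusted p = 0.0404). Each ASO library was below each MLi-2 library, and the difference of -1.07 passed the threshold (adjusted p = 0.0256). The same order held at the region near Fam240a (chr9:110909639-110909915), at 74.7, 70.5 and 71.5 in PFF, 15.7, 31.2 and 25.0 in PFF+MLi-2 and 1.70, 3.32 and 6.77 in PFF+Rab5 ASO, with a mean effect of -1.86 ± 0.187 (adjusted p = 0.0404).

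In 3 further introns the treatments were closer together. Snx33 (chr9:56924631-56924946) was at 39.3, 35.6 and 36.3 in PFF, 3.19, 3.06 and 3.82 in PFF+MLi-2 and 6.62, 8.32 and 3.56 in PFF+Rab5 ASO (-1.37 ± 0.157, adjusted p = 0.0404). Eef1a2, the translation elongation factor of neurons and muscle (chr2:181150231-181150603), was at 28.2, 31.5 and 31.7 in PFF, 4.28, 2.16 and 4.83 in PFF+MLi-2 and 2.83, 4.23 and 2.71 in PFF+Rab5 ASO (-1.31 ± 0.157, adjusted p = 0.0404). Both sets of treated values sat within the lowest 10% of shared regions. Erbb2, a receptor tyrosine kinase (chr11:98418296-98418736), was at 47.2, 30.4 and 44.6 in PFF, 4.41, 3.07 and 2.11 in PFF+MLi-2 and 6.66, 18.1 and 7.15 in PFF+Rab5 ASO (-1.34 ± 0.192, adjusted p = 0.0493). ASO replicate 2 stood above the other 5 treated libraries there.

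The introns of Osbp2, an oxysterol-binding protein (-1.37), and of Prkcb, a protein kinase C (-1.38), the promoter of 2310008N11Rik (-1.38), and intergenic regions at Gm18515 (-1.44) and Gm45430 (-1.38) made up the rest of the named lower regions. Among all 29 called regions, 2 were within 1 kb of a start site, which is 0.0107% of the 18664 shared promoter regions.

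**Figure D4:**
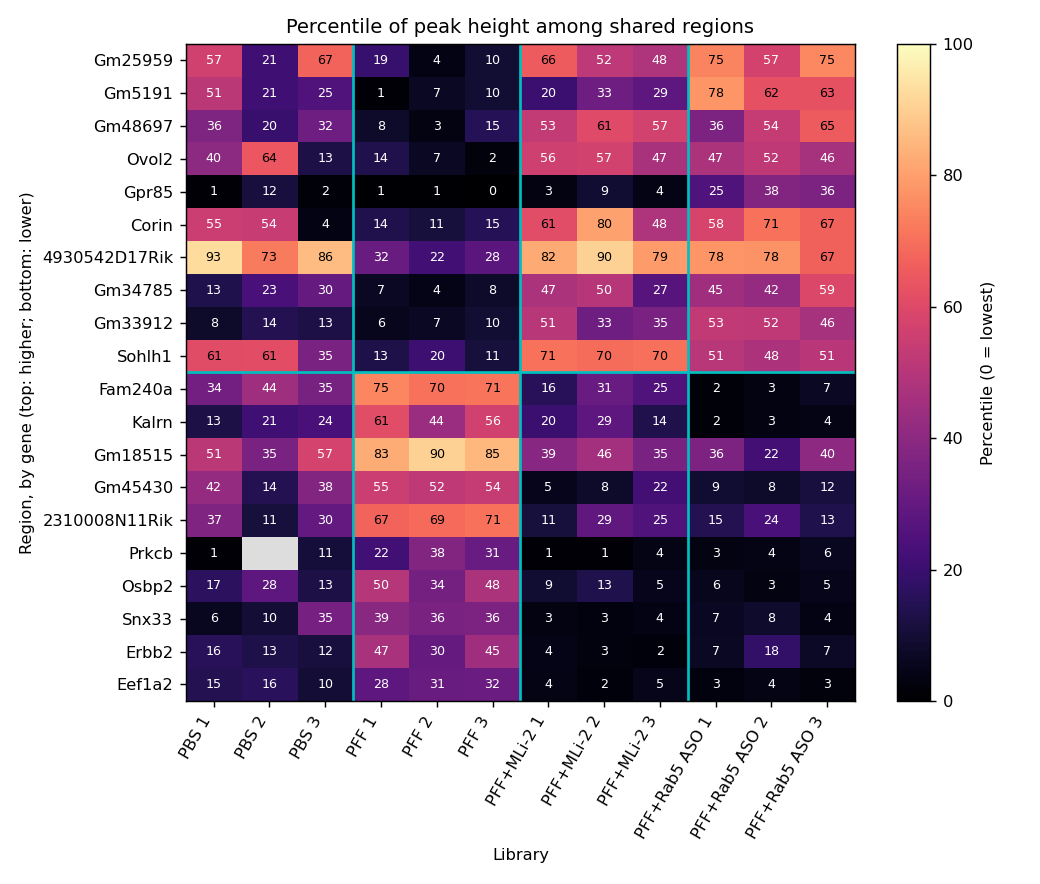
Percentile of fold enrichment (colour and digits, 0 = lowest) of the 20 named regions among the shared regions of each library, with the 10 higher regions above the horizontal line and the 10 lower ones under it, and grey for a PBS library with no peak. PFF columns are dark in the upper block and brighter in the lower block than the 6 treated columns; PBS columns, which the test did not use, lie between or with the treated ones in most rows.

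In PBS libraries, whose values the test did not use, the mean rank lay on the treated side of PFF in all 29 regions. All 3 PBS libraries were beyond all PFF libraries in 10 of the 15 higher and 14 of the 14 lower regions, counting those with a peak there. This is a description, because the regions were chosen for extreme PFF ranks. Over all regions whose treated and PFF ranks did not overlap and that had a peak in all 3 PBS libraries, the PBS mean was on the treated side in 2093 of 2242 (93.4%) where treated ranks were above and in 1921 of 2035 (94.4%) where they were below. The called regions therefore do not stand apart from the rest in this.

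**Figure D5:**
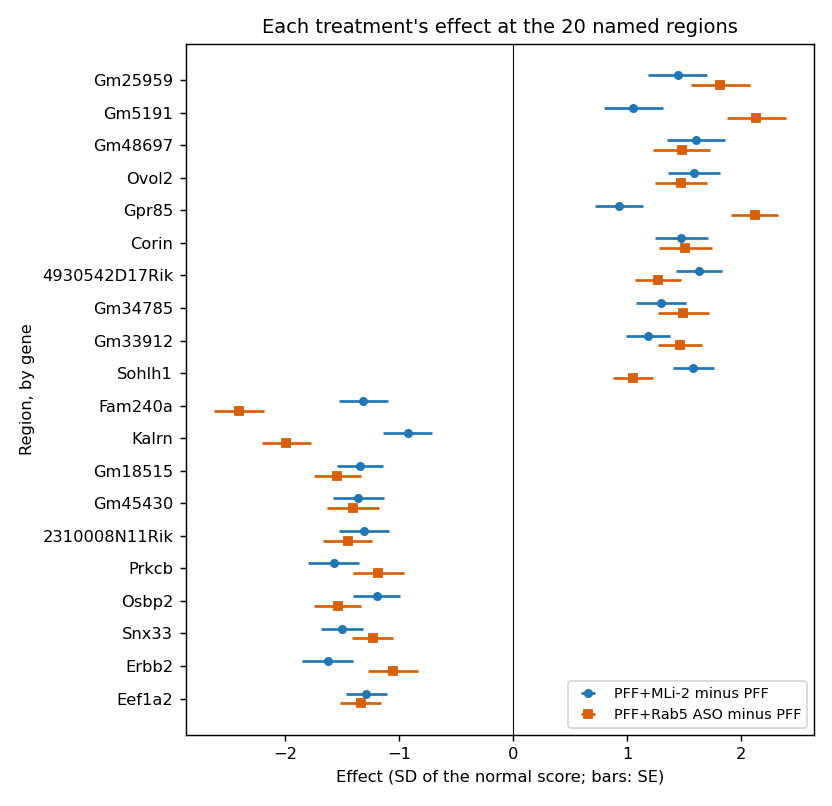
Effect of each treatment against PFF at the 20 named regions (SD of the normal score; bars are SE from limma; blue circles PFF+MLi-2, orange squares PFF+Rab5 ASO). Both effects lie on the same side of 0 in all 20 regions, which follows from choosing regions without overlap of treated and PFF ranks, and they are furthest apart at Gpr85, Fam240a, Gm5191 and Kalrn.

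The genes of the treatments' own targets showed no common change. At its promoter, Lrrk2 (chr15:91672903-91673316) was at percentiles of 94.8, 95.3 and 98.5 in PFF, 99.1, 99.0 and 98.3 in PFF+MLi-2 and 87.6, 77.6 and 86.2 in PFF+Rab5 ASO. Its mean effect was -0.18 (adjusted p = 0.685), made of 0.46 with MLi-2 and -0.82 with the ASO. The ASO effect missed the threshold (adjusted p = 0.0546), whereas the difference between treatments, -1.28, passed it (adjusted p = 0.0160). Rab5a and Rab5b, whose transcripts the ASOs target, had promoter effects of 0.15 and 0.16, and Rab5c -0.040. Antisense oligonucleotides act on RNA, so accessibility at these promoters does not check the knockdown.

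Promoters of further genes that the study followed gave like values. Tfeb and Tfe3, the lysosomal transcription factors, had effects of 0.092 and 0.22, Plekhf1, an endosomal phosphoinositide-binding protein, -0.17, and P2rx4, a lysosomal ATP-gated channel, -0.073. Ets1, an ETS transcription factor, was at 0.14 and Tgfb2, a growth factor, at -0.13. Camk2b, a calcium-dependent kinase of synapses, was at -0.015 and Sema6b, a semaphorin, at 0.056. The adjusted p of these promoters, with those of Lrrk2, Rab5a, Rab5b and Rab5c, ran from 0.573 to 0.977, and none of these genes held a gained or lost region in its body.

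Gene lists of pathways and cell types were read at promoters, taking for each gene its highest region within 1 kb of a start site that all 9 libraries shared. In every list 0 promoters were called in either direction, and over all protein-coding genes 13338 of 21911 had such a promoter, with 0 called and a median effect of 0.086. Unadjusted, 638 of these were higher (4.78%) and 275 lower (2.06%). The median was 0.15 over 13 of 14 genes of LRRK2 and its Rab substrates, 0.083 over 38 lysosomal genes, 0.12 over 24 autophagy genes and 0.14 over 26 genes of early endosomes and sorting. It was 0.13 over 25 of 26 senescence and stress genes and 0.085 over 28 synaptic genes. These medians lie close to that of all genes.

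Activity-regulated genes had a median of 0.24 over 18 of 20 promoters, and 5 were higher and 1 lower at an unadjusted p under 0.05. Npas4, a helix-loop-helix factor induced by calcium entry, was at 15.6, 14.1 and 16.6 in PFF, 33.9, 43.0 and 27.3 in PFF+MLi-2 and 34.4, 44.3 and 44.1 in PFF+Rab5 ASO (0.70 ± 0.162, adjusted p = 0.0905). The groups did not overlap, but the promoter missed the threshold over all regions. The AP-1 gene Junb was at 6.25, 3.63 and 4.36 in PFF, 17.3, 16.4 and 14.0 in PFF+MLi-2 and 12.5, 20.8 and 7.19 in PFF+Rab5 ASO (0.61 ± 0.177, adjusted p = 0.151). The others were Jun (0.44), Ier2 (0.46) and Egr3 (0.38), and, with the opposite sign, Dusp1, a phosphatase of MAP kinases (-0.48), with adjusted p from 0.246 to 0.289. Lysosomal genes at the same unadjusted level were the channel Mcoln1 (0.44), the proton pump subunit Atp6v1a (0.38) and the protease Ctsc (-0.54).

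Markers of the labelled cells were accessible. Of 13 cortical neuron markers, 12 had a promoter region in all 9 libraries, with a median effect of 0.25. Tbr1, a factor of deep-layer neurons, had the largest effect, 0.67 (adjusted p = 0.159). GABAergic interneuron markers had a median of 0.025 over 7 of 10, with Gad1, the enzyme that makes GABA, at 0.72 (adjusted p = 0.199). Of 8 microglial markers 0 had a promoter region shared by all 9 libraries, and Cx3cr1, Aif1, Csf1r, Itgam and Trem2 had a promoter peak in 0 of them. The median was 0.13 over 5 of 8 astrocyte markers, -0.0018 over 4 of 8 oligodendrocyte lineage markers, 0.061 over 8 neural progenitor markers and -0.38 over 2 of 6 endothelial markers, Flt1 (-0.64, adjusted p = 0.268) and Kdr. In bulk libraries, fewer cells of a type and less accessibility per cell cannot be told apart.

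Few list genes held a gained or lost region. Lost regions were in introns of Mitf, a factor of the TFEB family, of Vps45, a regulator of endosomal fusion, of Lmnb1, a nuclear lamina protein, of Aldh1l1, an astrocyte enzyme, and of Mbp, a myelin protein. Lost regions within 1 kb of an annotated start site lay in Gabarap, an autophagy adaptor (chr11:69991759-69991881), at 25 to 28 fragments, and in the annotated span of Cx3cr1, a microglial receptor (chr9:120024257-120024453), at 15 to 19. The start site nearest to the latter is that of Xirp1, which lies inside the Cx3cr1 span, and the former was among the lowest 1% of its lists by fold enrichment. The gained region was in an intron of Chek2, a DNA damage kinase (chr5:110873296-110873410), at 14 to 24 fragments. By list, gained or lost regions were in 2 of 38 lysosomal, 1 of 24 autophagy, 1 of 26 endosomal and 2 of 26 senescence genes. The last counts the gain at Chek2. They were in 1 of 8 markers each of astrocytes, the oligodendrocyte lineage and microglia. Over protein-coding genes 2.93% held a loss and 0.26% a gain, and the lists were not tested against these shares. The activity-regulated, synaptic and LRRK2 lists held 0, as did the markers of cortical neurons, GABAergic interneurons, endothelium and neural progenitors.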

How the data were processed

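ATAC-seq peak lists of 9 libraries were analysed, with 3 PBS lists read beside them. According to the submitters' processing notes and the study's methods, the authors trimmed reads with Trim Galore 0.6.7, checked them with FastQC, aligned them to GRCm38 with Bowtie2 2.5.1 and called peaks in each library separately with MACS2 2.2.7.1, without pooling. MACS2 options, duplicate handling and the Tn5 offset are not given in the sources used here, and each would change peak number, width and height. The deposited lists give the fold enrichment of each peak over background (a ratio), the −log10 p-value, the −log10 q-value and a score, which the authors' caller derives from the −log10 q. No read counts were used here.

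Regions, calls and ranks were computed with Python 3.11.15 (numpy 2.4.6, pandas 2.3.3, scipy 1.17.1, pysam 0.24.0), and 1093 of the peaks (0.0756%) off chromosomes 1 to 19, X and Y were left out. The fold and −log10 p of a peak together return its fragment pileup, and for 100% of peaks a whole number gave back the listed −log10 p to within 0.001. The most frequent background value divided by the smallest peak width, taken as the fragment length, gave the relative depth. Ranks of fold enrichment over the 76004 shared regions were turned into normal scores and fitted with limma 3.58.1 in R 4.3.3 as 3 groups without covariates (lmFit, contrasts.fit, eBayes, Benjamini-Hochberg adjusted p under 0.05 over all regions). The contrast was the mean of both treatments minus PFF. On simulated data 0 regions were called without any shift, and with 200 regions shifted by 2 SD of the normal score, 4 other regions were called. Single values per library were tested by exact permutation over 84 assignments (smallest possible p = 0.0119). Promoters were within 1 kb of a start site.

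Named regions were the 10 gained and 10 lost with the highest mean percentile in their lists, and the 10 higher and 10 lower calls with the largest effects among those without overlap. Some genes of the lists are not reported here. A region was named for the gene that holds its centre, otherwise for the nearest start site. The members of the comparison and the gene lists were chosen with earlier results of these data known, and 1 of the 16 letter strings searched was added after the sequences had been seen. Replicate numbers are shared between groups, but deviations of same-numbered libraries correlated at 0.0135 to 0.0352 only. The methods assign cultures of each pregnancy to groups at random without tying numbers to pregnancies, so the main fit has no block and the block is an alternative. Alternatives changed the number of peaks per list, the q threshold, the overlap rule, the column and set ranked, the fit and the libraries used.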

Additional observations from a re-analysis of the deposited data

Results flagged for a closer look

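The 6 treated libraries were examined for a single distant library in 47 sets of values, and 3 sets held one. Chance gives about 1 in 20 for libraries of a single kind. Each set here joins both treatments, and many regions were chosen on these values, so that rate need not apply. At the gained region in Gabrg3, ASO replicate 3 was at a list percentile of 31.0 and the other 5 treated libraries at 61.1 to 76.4, a gap of 0.663 of the range. At the gained region near Gm14998, ASO replicate 1 was at 73.3 and the others at 55.4 to 61.2, a gap of 0.672. At the lower region in Erbb2, ASO replicate 2 was at 18.1 and the others at 2.11 to 7.15, a gap of 0.685.

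Differences between the treatments passed the adjusted threshold in limma for 5 of the 33 named regions and promoters examined, as it did for 4.09% of all 76004 shared regions. Of the 33, 20 were named for large mean effects, so this count is not a share to set against that background. The ASO effect was larger than the MLi-2 effect by 1.08 at Gm5191 (2.13 against 1.05, adjusted p = 0.0427) and by 1.19 at Gpr85 (2.12 against 0.93, adjusted p = 0.0185). It was more negative at Fam240a, where the difference was -1.09 (-2.41 against -1.31, adjusted p = 0.0244), and at Kalrn, where it was -1.07 (-1.99 against -0.92, adjusted p = 0.0256). At the Lrrk2 promoter the effects had opposite signs and differed by -1.28 (-0.82 against 0.46, adjusted p = 0.0160).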

How the results depend on the processing

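No tested difference changed sign under the alternatives run. The gained and lost counts kept their order, lost above gained, in all alternatives tried, and their sizes moved. Allowing 1 library of the treated group to differ gave 669 gained and 3195 lost regions, cover of at least 50% of the region gave 19 and 674, and equal lists gave 185 gained. Leaving out 1 library in turn gave 141 to 447 gained and 1322 to 3083 lost regions, since fewer libraries then have to meet the rule. A −log10 q of at least 3 gave 124 and 1182, and windows around summits 130 and 1115.

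Height calls moved most, and the cause was not tested. Higher and lower calls numbered 30 and 32 with equal lists, 35 and 40 at a −log10 q of at least 3, 5 and 1 with ranks of −log10 p, 0 and 2 with ranks among all peaks of a list, 66 and 78 in the upper part by mean rank, where fewer regions were tested, 0 and 0 as 2 groups, and from 0 to 10 and from 0 to 9 without 1 library. The test of each treatment gave 0 and 0 throughout. Over the alternatives, the 20 named height regions kept their call in 67 of 314 fits and lost it in 247, with adjusted p from 0.0143 to 0.589 in limma. Windows around summits took the effects at Gpr85 and Gm48697 from 1.52 and 1.54 to 0.23 and 0.22.

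With the replicate block, 0 and 0 regions were called, the relative depth difference of 0.266 gave an exact p of 0.0741 and the pseudo-F of 1.46 an exact p of 0.111. Same-numbered libraries correlated weakly but in all 9 pairs positively (median 0.0201, other pairs -0.0141), and whether a number marks a shared pregnancy is not given in the sources used here, so the pairing is undecided. In exact permutation tests, covered length passed the threshold with equal lists (-2.54 Mb, p = 0.0238), and it ranged from -4.08 to -2.43 Mb without 1 library, passing without PFF replicate 3 and without ASO replicate 1. Width passed with equal lists (-16.7 bp, exact p = 0.0357) and ranged from -14.5 to -9.87 bp, passing without MLi-2 replicate 1. Relative depth ranged from 0.227 to 0.304 and lost the threshold without any PFF library, MLi-2 replicate 1 or 3 or ASO replicate 2. The pseudo-F ranged from 1.23 to 1.55 and lost it without any PFF or ASO library. Peaks of 16 to 18 fragments limit how firmly a peak is present or absent in 1 library.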
